A study of Mus musculus with 12 samples.

Results

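The 36 genes described here are germ cell genes of meiosis, of the piRNA pathway and of spermatogenesis. As a class, such genes are known for being kept off in somatic cells by promoter DNA methylation, which was not checked for each of them. The 36 were chosen by name, with earlier results of these data known. Of them, 35 were found by symbol among the 24421 gene symbols of both count tables. Meioc was listed only under its older symbol Gm1564 and is given on its own. Genes of this class often have CpG-rich promoters that become methylated around implantation and stay methylated outside the germline. Many of them are also held down in mouse embryonic stem cells (ESCs) by a Polycomb-type complex that contains E2F6, MGA, MAX and PCGF6 and that recognises E2F and E-box sequences. The proteins build the synaptonemal complex and the chromosome axis of meiosis, bind germ cell messenger RNAs, or make piRNAs, the small RNAs that guide PIWI proteins against retrotransposons. DNA methylation itself was not analysed here.

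RNA was sequenced from mouse androgenetic haploid ESCs, whose only genome copy comes from sperm, on a C57BL/6 background. The parental line OdG gave 2 wild-type (WT) libraries, 2 libraries of a first Etl4 knockout line (line 1) and 2 of a second Etl4 knockout line (line 2). The parental line EG1 gave 3 WT libraries and 3 libraries of its Etl4 knockout (KO). All groups share the haploid androgenetic origin and the strain, and they differ in the parental line and in Etl4. The labels do not describe the edit at Etl4 or say whether a KO line is 1 clone, so line 1 and line 2 are each compared with WT and with each other, not pooled.

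Promoter sequence is shown first, because E2F6 and E-box letters near the start site are a feature for which this class of genes is known. RefSeq promoter windows on GRCm38.p6 (mm10), 300 bases each with 250 before and 50 after the start, were matched by symbol for 32 of the 35 genes. Piwil2, Tex11 and Tex15 are named only. The E-box letters CACGTG, which read the same on both strands, occurred in 15 of the 32 windows (46.9%), against 7.24% of 27025 genes with a window and 10.2% of the 10834 of them tested in the OdG table. The E2F6 letters TCCCGC, or GCGGGA on the other strand, occurred in 13 of 32 (40.6%), against 20.1% and 35.7%. The median window held 19 CpG dinucleotides (observed over expected 0.753), against 7 (0.389) over all windows and 20 (0.751) over those of tested genes, so that CpG content was like that of other expressed genes and above that of all genes. A match is a description of letters, not a bound site. The 100 bases before the start are printed 5′ to 3′ for 10 genes, namely those with an E-box there and those with a window at either end of the order of line 2 over line 1 given below, leaving out stretches that overlap an annotated exon. Capitals mark CACGTG and TCCCGC or GCGGGA.
Fkbp6: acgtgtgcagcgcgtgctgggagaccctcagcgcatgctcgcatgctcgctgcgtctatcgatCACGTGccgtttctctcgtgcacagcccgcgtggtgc
Tktl2: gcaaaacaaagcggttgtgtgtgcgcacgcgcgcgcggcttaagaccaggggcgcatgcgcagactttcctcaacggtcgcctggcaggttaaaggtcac
Sycp1: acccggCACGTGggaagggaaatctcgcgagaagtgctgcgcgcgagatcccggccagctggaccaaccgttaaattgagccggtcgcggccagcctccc
Tdrd9: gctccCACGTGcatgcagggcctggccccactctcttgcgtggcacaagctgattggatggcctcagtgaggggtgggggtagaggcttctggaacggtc
Taf7l: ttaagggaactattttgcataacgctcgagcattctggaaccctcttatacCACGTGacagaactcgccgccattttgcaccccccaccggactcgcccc
Hormad1: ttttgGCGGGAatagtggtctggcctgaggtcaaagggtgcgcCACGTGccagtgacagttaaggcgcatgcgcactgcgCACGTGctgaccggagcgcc
Stk31: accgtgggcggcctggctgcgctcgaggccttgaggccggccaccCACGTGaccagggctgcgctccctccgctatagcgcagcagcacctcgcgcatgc
Tdrd1: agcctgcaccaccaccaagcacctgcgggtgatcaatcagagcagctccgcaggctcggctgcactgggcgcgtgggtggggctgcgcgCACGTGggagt
Rpl10l: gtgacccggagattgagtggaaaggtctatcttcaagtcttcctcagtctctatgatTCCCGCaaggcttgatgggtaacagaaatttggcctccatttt
Tex19.1: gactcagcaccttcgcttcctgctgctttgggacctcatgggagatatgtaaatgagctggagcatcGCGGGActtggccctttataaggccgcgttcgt

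The stretches lie at chr5:135350045-135350144, minus strand (Fkbp6), chr8:66511640-66511739, plus strand (Tktl2), chr3:102936101-102936200, minus strand (Sycp1), chr12:111971459-111971558, plus strand (Tdrd9) and chrX:134476491-134476590, minus strand (Taf7l). The others are chr3:95559577-95559676, plus strand (Hormad1), chr6:49395439-49395538, plus strand (Stk31), chr19:56826109-56826208, plus strand (Tdrd1), chr12:66284402-66284501, minus strand (Rpl10l) and chr11:121146043-121146142, plus strand (Tex19.1). Fkbp6 carried 1 E-box and 13 CpG in its 100 bases, whereas Tktl2 carried neither motif and 11 CpG. Hormad1 held 2 E-boxes and 1 E2F6 motif. Rpl10l and Tex19.1, with 2 and 6 CpG, held an E2F6 motif and no E-box.

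Total counts ran from 16110028 to 19706599 per library, so that 1 CPM (counts scaled to library size, with TMM factors within each table) stood for 15.75 to 19.8 counts. Levels of the OdG and EG1 tables are thus on separate scales, and they are compared only in 1 fit over all 12 libraries. Etl4 itself was at 205.8 to 210.4 CPM in OdG WT against 97.2 to 101 in line 1 and 109.7 to 114.2 in line 2, and at 259.9 to 264.8 in EG1 WT against 130.9 to 133.6 in EG1 KO. All 10 ESC marker genes had at least 1 CPM in every group. The labels do not say whether the replicates of a group were grown separately. A p-value here therefore measures library-to-library spread, and that spread may be technical. Genes were called at an adjusted p under 0.05 over all genes tested with edgeR's quasi-likelihood test, and fold changes are given as log2 with their standard error (SE, after the ± sign).

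Although the genes are named for being silent, none of the 35 had a count of 0 in any library, and 31 had a mean of at least 1 CPM in OdG WT. Their summed level was 759.5 to 774.1 CPM in OdG WT, 718.4 to 730.3 in line 1 and 1373 to 1407 in line 2. In the EG1 table the sum was 959 to 970.5 in WT and 900.1 to 921.7 in KO. Line 2 thus stood above the other OdG groups in total, and the gap was also there without Dazl, Tex19.1, Rpl10l, Tdrd12 and Tex15, a group that includes the highest counts: 364.4 to 369.1 CPM in OdG WT, 275.9 to 277.4 in line 1 and 808.2 to 824 in line 2. In bulk RNA, fewer or more cells that express a gene and less or more RNA per cell cannot be told apart.

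The KO lines of OdG differed from each other in nearly every gene of the set. Line 2 was higher than line 1 for 34 of 35 genes and lower for 0, with a median log2 difference of 1.51, whereas over all 14413 genes tested 19% were higher and 19.7% lower and the median was -0.003. The count lower was also 0 at an unadjusted p under 0.05 in edgeR, and 0 at an adjusted p under 0.05 in DESeq2. Tdrd12 was the 1 gene not called (log2 -0.05 ± 0.043 SE, adjusted p = 0.42). Of the 31 genes that passed the filter on low counts in every OdG group, 30 were higher; Gtsf1 and Tex101 passed only through line 2, and Tdrd5 and Tdrd9 through WT and line 2, and a gene that passes only through the group where it is high has to differ. Adjusted p of the called genes ran from 5.4e-20 to 0.038. Because the genes were chosen with earlier results of these data known, the counts describe the set and do not test it. The summed level of 2-cell-like marker genes moved with them, from 11.7 to 13.1 CPM in line 1 to 42.8 to 43.9 in line 2, and its part in the result was not tested. The 34 genes lie on 16 chromosomes, with at most 4 on any of them and 3 on the X (Tex11, Taf7l and Usp26).

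Against OdG WT the lines went different ways. Line 2 was higher for 28 of 35 genes and lower for 0 (also 0 at an unadjusted p under 0.05 and in DESeq2), with a median log2 difference of 0.85. Among all genes tested, 30.3% were higher and 29.9% lower in line 2, with a median of -0.009. Line 1 was lower for 13 genes and higher for 4 (Usp26, Rpl10l, Tex19.1 and Tdrd12), and its median was -0.33. The background in line 1 was 27% higher and 26.3% lower, with a median of -0.007. Without Gtsf1, Tex101, Tdrd5 and Tdrd9 the counts were 25 higher of 31 in line 2, and 4 higher and 12 lower of 31 in line 1. Both comparisons use the same WT libraries, so their values are set side by side and are not separate evidence.

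In EG1 few of these genes differed between KO and WT beyond the spread of replicates. Of 34 genes tested, 1 was higher (Tdrd12) and 4 were lower (Usp26, Tex15, Rpl10l and Stk31), with a median log2 difference of -0.10, against 3.81% higher and 4.23% lower and a median of -0.001 over 14016 genes. Tex101 was not tested in EG1 because of low counts, and Tdrd5 and Sycp2 did not pass the filter in both EG1 groups. The 29 genes not called are not shown to be equal, since intervals of low genes were wide.

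**Figure D1:**
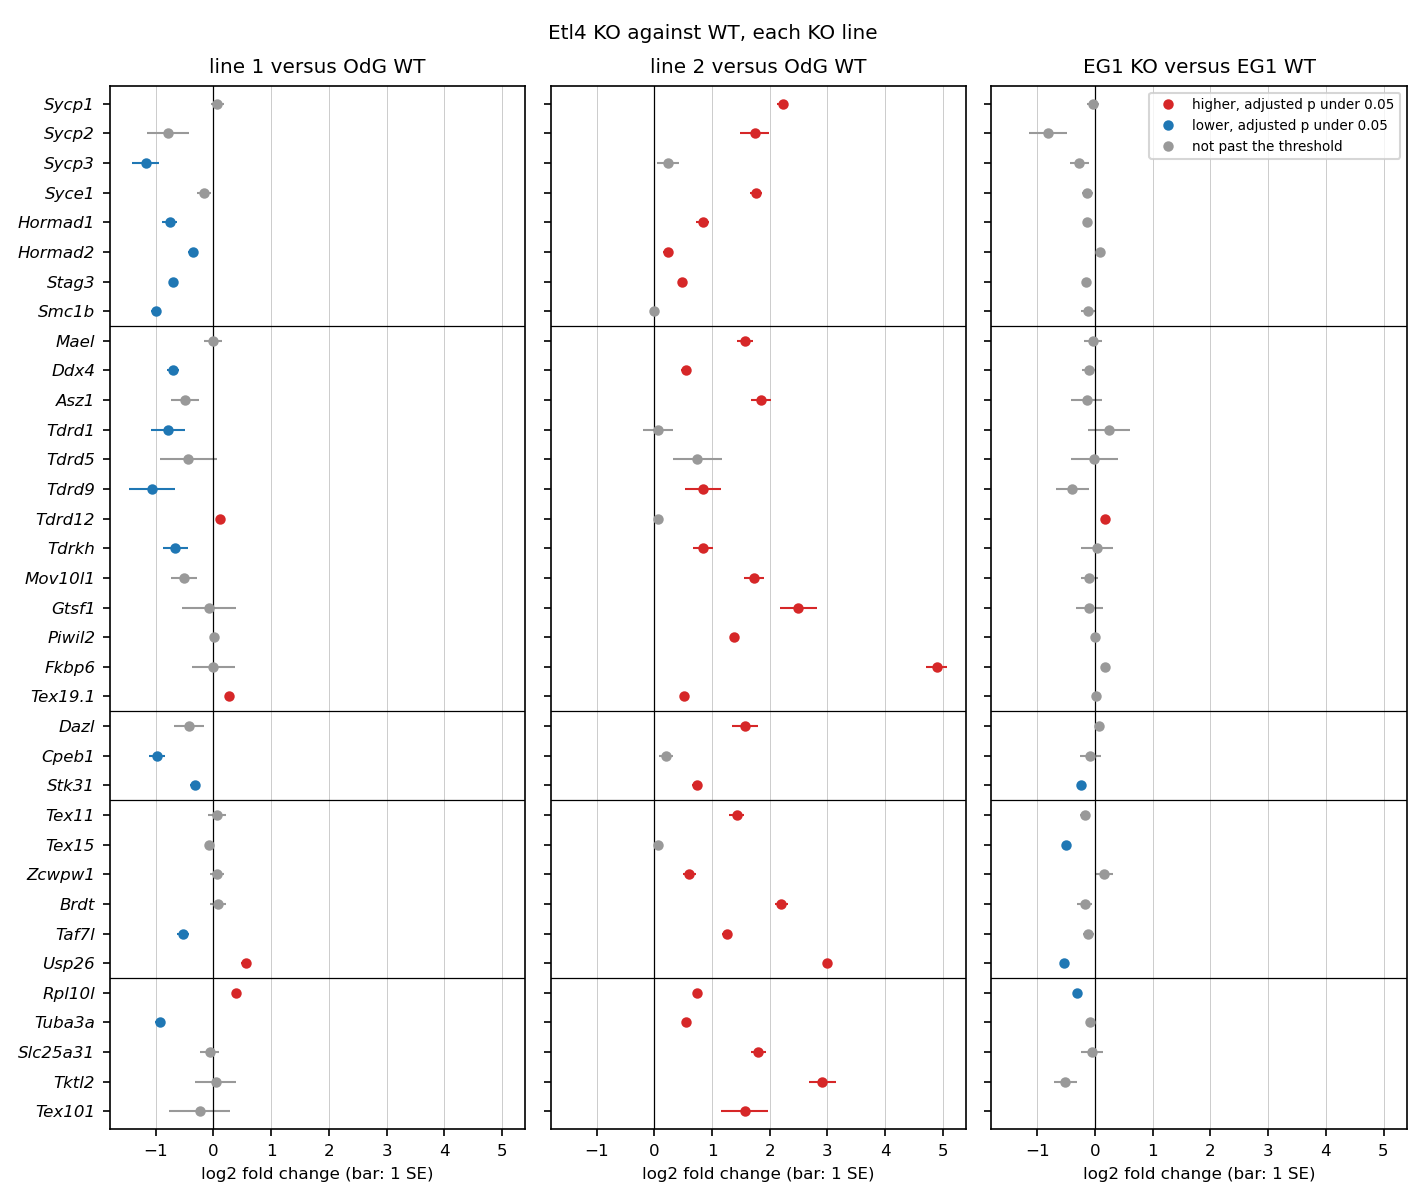
Log2 fold change of each of the 35 genes (listed by role) for OdG line 1 against OdG WT, line 2 against OdG WT and EG1 KO against EG1 WT, with points as edgeR estimates, bars as 1 SE and colour as the call at adjusted p under 0.05. Called genes are 4 higher and 13 lower in line 1, 28 higher in line 2, and 1 higher and 4 lower in EG1. The EG1 estimate that is largest in size is log2 -0.82 for Sycp2, which was not called.

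The plot of levels by library shows the values that the next paragraphs give role by role.

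**Figure D2:**
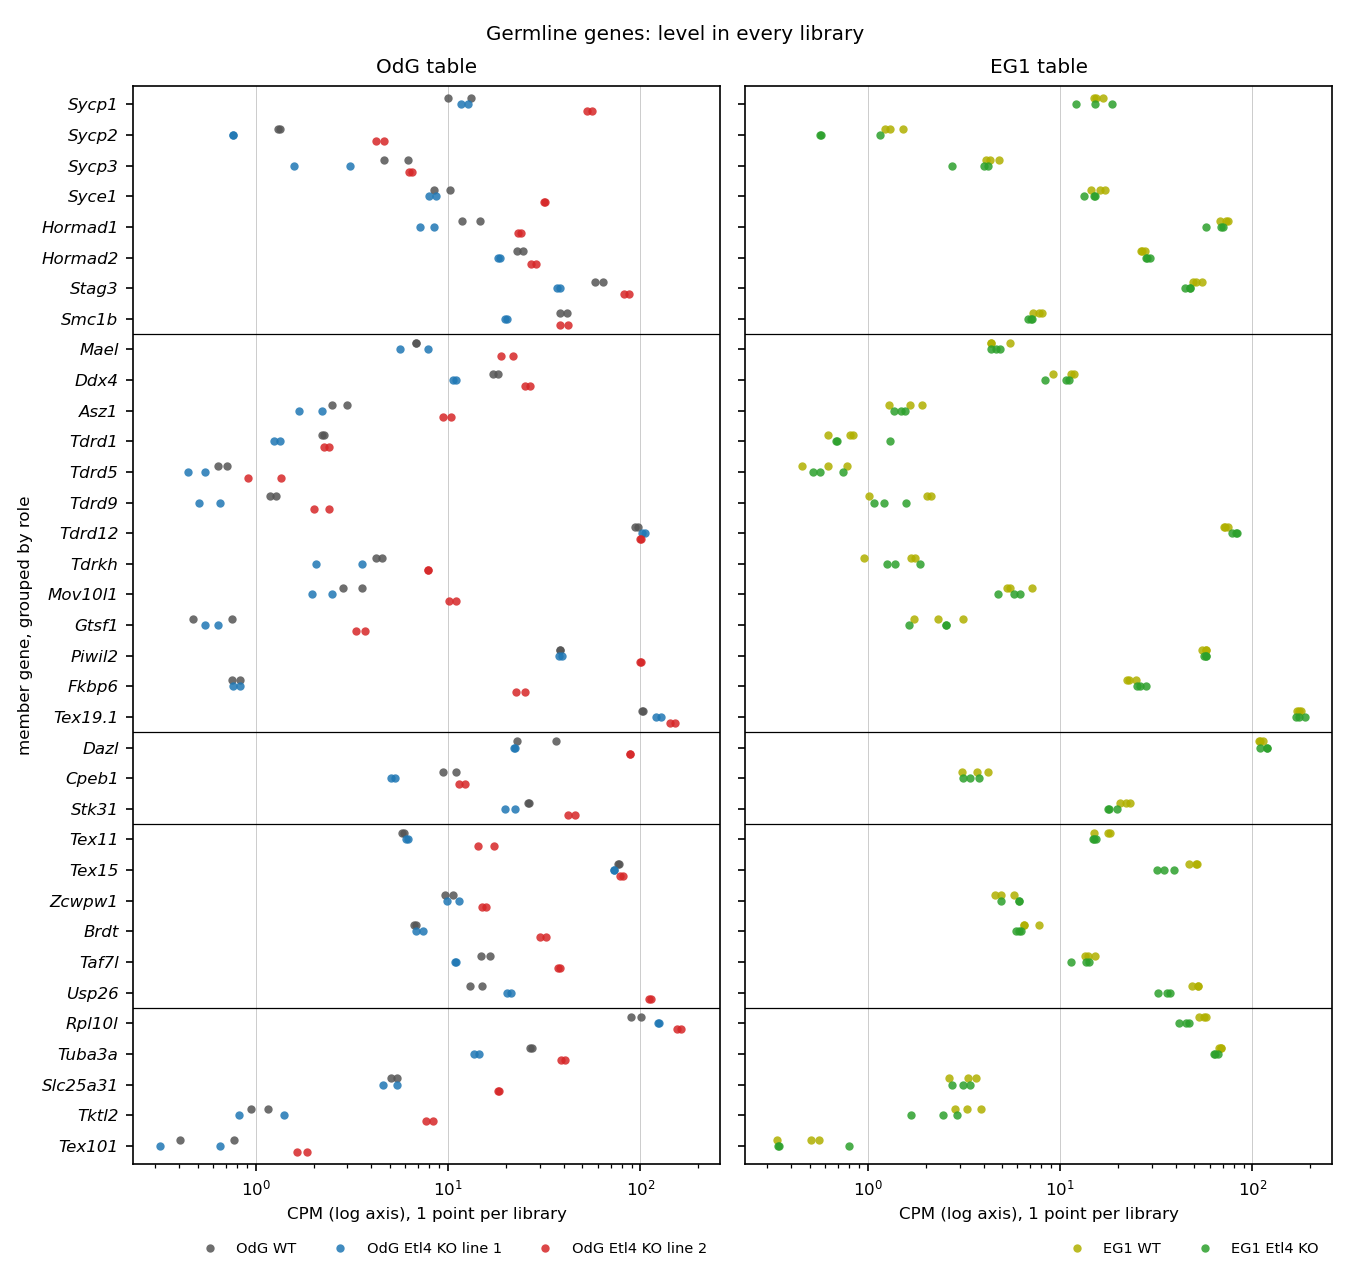
CPM of each gene in every library on a log axis, with the OdG table on the left (WT grey, line 1 blue, line 2 red) and the EG1 table on the right (WT olive, KO green), 1 point per library. Line 2 (red) was called higher than line 1 (blue) for 34 of 35 genes, against 19% of all genes tested, and Tdrd12 was not called. The 34 include Gtsf1 and Tex101, which passed the filter on low counts only through line 2 and had to differ. Fkbp6 spans 0.753 to 25 CPM in the OdG table.

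Genes of the synaptonemal complex, the chromosome axis and meiotic cohesin were higher in line 2 than in line 1 for 8 of 8 genes (median log2 1.5, with 19% of all genes). Against WT, 6 of the 8 were higher in line 2 (30.3% of all genes) and 5 were lower in line 1 (26.3% of all genes). In EG1, 0 of 8 were called in either direction by edgeR, with 3 lower at an unadjusted p under 0.05. The 3 include Sycp2, which passed the filter on low counts in EG1 only through WT, where it was higher, so it adds nothing to that count. The share of all genes lower at an unadjusted p under 0.05 was not computed. Sycp1, the transverse filament protein that zips homologous chromosomes together, was at 10.0 and 13.2 CPM in WT, 11.6 and 12.8 in line 1 and 56.0 and 52.6 in line 2. WT and line 1 overlapped, and line 2 stood 4.46-fold above line 1 (log2 2.16 ± 0.095 SE, adjusted p = 1e-15). In EG1 WT it was at 15.0, 16.7 and 15.3 CPM and in EG1 KO at 12.1, 18.6 and 15.2, levels that overlapped. Sycp2, a lateral element protein, was at 1.33 and 1.31 CPM in WT, 0.761 and 0.762 in line 1 and 4.63 and 4.21 in line 2 (log2 2.52 ± 0.28 SE, adjusted p = 7.2e-08 for line 2 over line 1). In EG1 its WT libraries read 1.52, 1.23 and 1.31 CPM and its KO libraries 0.570, 0.568 and 1.16. The EG1 KO libraries lay below WT without passing the test (adjusted p = 0.12), at 40 to 75 counts per group. Sycp3, its lateral element partner, was at 4.64 and 6.17 CPM in WT, 3.10 and 1.59 in line 1 and 6.53 and 6.24 in line 2. It was lower in line 1 than in WT (log2 -1.17 ± 0.23 SE, adjusted p = 0.0002), and the line 1 libraries differed, so that the drop was log2 -1.76 without line 1 replicate 1 and the rise from line 1 to line 2 went from log2 1.41 to 2.0. In EG1, Sycp3 was at 4.84, 4.31 and 4.14 CPM in WT and 2.74, 4.03 and 4.22 in KO.

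Syce1, a central element protein, was at 8.46 and 10.2 CPM in WT, 8.70 and 7.94 in line 1 and 31.5 and 32.0 in line 2. Line 2 was 3.8-fold above line 1, whose libraries overlapped WT. In EG1 it was at 14.5, 16.1 and 17.1 CPM in WT and 13.3, 15.0 and 15.2 in KO. Hormad1, which marks chromosome axes that have not yet synapsed, was at 11.8 and 14.7 CPM in WT, 7.18 and 8.51 in line 1 and 24.0 and 23.2 in line 2, so that the lines left WT in opposite directions (log2 -0.76 ± 0.13 in line 1 and log2 0.84 ± 0.11 in line 2). The EG1 levels were 75.0, 68.2 and 72.7 CPM in WT and 57.1, 70.1 and 69.0 in KO. The EG1 comparison was not called (adjusted p = 0.17), but it was without EG1 KO replicate 2 (log2 -0.19, adjusted p = 0.039). Its relative Hormad2 was at 24.5 and 22.8 CPM in WT, 18.7 and 18.1 in line 1 and 28.6 and 27.0 in line 2. The step from WT to line 2 was small (log2 0.23 ± 0.083) and was lost without WT replicate 2 or line 2 replicate 1 (adjusted p = 0.13 for each) and in DESeq2 (adjusted p = 0.14). In EG1, Hormad2 was at 26.6, 26.3 and 27.7 CPM in WT and 27.8, 28.4 and 29.5 in KO.

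Both cohesin genes were lower in line 1 than in WT. Stag3, the meiotic STAG subunit, was at 63.8 and 57.9 CPM in WT, 36.9 and 38.3 in line 1 and 82.4 and 87.4 in line 2. The 3 groups did not overlap, and both lines differed from WT (log2 -0.70 ± 0.063 SE, adjusted p = 7.2e-10 in line 1 and log2 0.48 ± 0.056 SE, adjusted p = 5.2e-08 in line 2). EG1 WT held 49.0, 54.7 and 50.9 CPM and EG1 KO 47.1, 44.8 and 47.2. Smc1b, the meiotic SMC subunit, was at 41.8 and 38.4 CPM in WT and 42.1 and 38.0 in line 2, which overlapped (log2 -0.001 ± 0.074), whereas line 1 was at 20.3 and 19.7. Line 1 was thus 2.0-fold below WT, and line 2 was 2.0-fold above line 1. In EG1, Smc1b was at 8.10, 7.79 and 7.22 CPM in WT and 6.84, 7.10 and 7.17 in KO.

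The piRNA pathway and retrotransposon defence genes were higher in line 2 than in line 1 for 12 of 13 genes (19% of all genes), with a median of log2 1.51. Against WT, 10 were higher in line 2 (30.3% of all genes). Both counts include Gtsf1, which passed the filter on low counts only through line 2 and had to differ. They also include Tdrd9, which passed through WT and line 2. Line 1 had 2 higher and 4 lower of the 13, shares near or below the 27% and 26.3% of all genes. In EG1 KO, 1 gene was higher and 0 were lower (also 0 at an unadjusted p under 0.05 and in DESeq2), against 3.81% and 4.23% of all genes. Fkbp6, a co-chaperone used when PIWI proteins are loaded, lies at chr5:135291704-135350044 on the minus strand and had the largest fold change of the set. It was at 0.753 and 0.831 CPM in WT and 0.761 and 0.825 in line 1, against 25.0 and 22.6 in line 2. Line 2 was 29.8-fold above line 1 (log2 4.90 ± 0.18 SE, adjusted p = 3.2e-17) and 29.8-fold above WT. In the EG1 table, on its own scale, it was at 24.9, 22.7 and 22.3 CPM in WT and 28.1, 25.1 and 26.0 in KO. Its promoter stretch is the first of those printed above, and its window holds 2 E-boxes.

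Piwil2, the PIWI protein that binds the piRNAs of early male germ cells, was at 38.2 and 38.4 CPM in WT, 39.0 and 37.8 in line 1 and 101 and 99.3 in line 2. WT and line 1 could not be told apart (log2 0.00 ± 0.061), and line 2 was 2.61-fold above line 1 (log2 1.38 ± 0.054 SE, adjusted p = 1.1e-16). In EG1 it was at 57.7, 57.7 and 54.5 CPM in WT and 57.1, 57.5 and 55.7 in KO. Mov10l1, the RNA helicase that picks piRNA precursors, was at 2.84 and 3.56 CPM in WT, 2.50 and 1.97 in line 1 and 10.2 and 11.0 in line 2. Line 2 stood 4.7-fold above line 1, and line 1 lay below WT without being called (adjusted p = 0.061), though it was called without WT replicate 1 (adjusted p = 0.035). EG1 WT held 5.51, 7.11 and 5.30 CPM and EG1 KO 6.16, 4.77 and 5.78. Asz1, which anchors piRNA factors at mitochondria, was at 2.49 and 2.97 CPM in WT, 1.69 and 2.22 in line 1 and 9.39 and 10.3 in line 2, a 5.09-fold difference between the lines. The EG1 levels were 1.91, 1.29 and 1.67 CPM in WT and 1.48, 1.36 and 1.56 in KO. Gtsf1, a zinc finger partner of PIWI proteins, was at 0.753 and 0.475 CPM in WT, 0.544 and 0.635 in line 1 and 3.72 and 3.31 in line 2 (log2 2.57 ± 0.33 between the lines). EG1 WT gave 2.31, 1.74 and 3.13 CPM and EG1 KO 2.56, 1.65 and 2.54. For Piwil2, Mov10l1 and Asz1 line 2 was above every other OdG library, a pattern whose share over all genes was not computed. Gtsf1 passed the filter on low counts only through line 2, so it had to differ.

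Mael, a nuage protein needed to silence transposons, was at 6.84 and 6.83 CPM in WT, 7.89 and 5.65 in line 1 and 21.8 and 18.9 in line 2. The line 1 libraries fell on either side of WT, and line 2 was 2.98-fold above line 1 (adjusted p = 3.4e-10). In EG1 it was at 5.51, 4.37 and 4.39 CPM in WT and 4.39, 4.66 and 4.86 in KO. Ddx4, the mouse vasa RNA helicase, was at 17.0 and 18.2 CPM in WT, 10.6 and 11.0 in line 1 and 26.6 and 25.1 in line 2. It fell in line 1 (log2 -0.71 ± 0.10) and rose in line 2 (log2 0.55 ± 0.09) against WT. EG1 WT read 9.17, 11.9 and 11.5 CPM and EG1 KO 8.38, 11.1 and 10.7.

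The Tudor domain genes, which scaffold PIWI proteins, differed among themselves. Tdrd12 was at 97.5 and 94.2 CPM in WT, 106 and 102 in line 1 and 100.2 and 100.4 in line 2, which lay within a narrow range. Line 1 was called higher than WT by log2 0.11 ± 0.044, a call lost without WT replicate 2 (adjusted p = 0.11) or line 1 replicate 1 (adjusted p = 0.26), in DESeq2 (adjusted p = 0.17) and with upper quartile scaling (adjusted p = 0.33). In EG1 it rose from 74.3, 71.7 and 71.0 CPM in WT to 78.3, 83.5 and 82.0 in KO (log2 0.17 ± 0.046 SE, adjusted p = 0.014), and the call was lost without EG1 WT replicate 2 or 3 or EG1 KO replicate 2 or 3 (adjusted p = 0.063 to 0.087). Tdrkh, a mitochondrial Tudor protein for trimming piRNA ends, was at 4.52 and 4.21 CPM in WT, 2.07 and 3.56 in line 1 and 7.87 and 7.86 in line 2. Its fall in line 1 went from log2 -0.66 to -0.30 without line 1 replicate 1 (adjusted p = 0.33) and to -1.07 without line 1 replicate 2, while line 2 was above WT (log2 0.85 ± 0.18 SE, adjusted p = 0.00022). In EG1, Tdrkh was at 0.956, 1.68 and 1.77 CPM in WT and 1.25, 1.87 and 1.39 in KO.

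The other 3 Tudor genes had low counts. Tdrd9, a Tudor helicase, was at 1.27 and 1.19 CPM in WT, 0.653 and 0.508 in line 1 and 2.01 and 2.42 in line 2 (log2 1.91 ± 0.36 SE, adjusted p = 0.00013 between the lines). Its calls against WT did not survive leaving out 1 library, with adjusted p up to 0.14 in line 1 (any of its 4 libraries) and up to 0.15 in line 2 (WT replicate 1 or 2 or line 2 replicate 2), nor DESeq2 (adjusted p = 0.15 and 0.19). The EG1 levels were 2.02, 2.13 and 1.01 CPM in WT and 1.08, 1.59 and 1.21 in KO. Tdrd1 was at 2.20 and 2.26 CPM in WT, 1.25 and 1.33 in line 1 and 2.26 and 2.42 in line 2. Line 1 was low and line 2 was close to WT (log2 0.07 ± 0.26), and both Tdrd1 calls on line 1 were lost without any 1 of the 4 libraries compared (adjusted p = 0.058 to 0.11) and in DESeq2 (adjusted p = 0.18 against WT and 0.17 against line 2). In EG1, Tdrd1 was at 0.619, 0.840 and 0.808 CPM in WT and 0.684, 1.31 and 0.694 in KO. Tdrd5 was at 0.637 and 0.712 CPM in WT, 0.544 and 0.444 in line 1, 0.915 and 1.35 in line 2, 0.619, 0.784 and 0.455 in EG1 WT and 0.741, 0.568 and 0.520 in EG1 KO. Its line 2 to line 1 call (adjusted p = 0.038) was the weakest of the 34 and was lost without any 1 of the 4 libraries (adjusted p = 0.052 to 0.31), in DESeq2 (adjusted p = 0.25) and with no filter on low counts (adjusted p = 0.051).

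Tex19.1, which restrains retrotransposons in germ cells and placenta, is active in ESCs, and it was at 104 and 102 CPM in WT. It read 128 and 121 in line 1 and 151 and 143 in line 2, with a step up from WT to line 1 (log2 0.27 ± 0.044) and another to line 2 (log2 0.24 ± 0.043). EG1 WT was at 169.7, 179 and 175 CPM and EG1 KO at 188, 168 and 175.

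Of the germ cell RNA-binding genes, 3 of 3 were higher in line 2 than in line 1 (19% of all genes). Dazl, an RNA-binding protein that controls translation and is required for germ cells, lies at chr17:50279395-50293636 on the minus strand. It was at 22.9 and 36.5 CPM in WT, 21.9 and 22.2 in line 1 and 88.1 and 88.1 in line 2. The WT libraries differed from each other more than those of either KO line. Line 2 was above all other OdG libraries, 3.99-fold over line 1 (log2 2.0 ± 0.23 SE, adjusted p = 0.0069). That call was lost without either line 1 library (adjusted p = 0.077 without replicate 1 and 0.071 without replicate 2), at log2 differences of 1.99 and 2.0. Against WT, line 1 was not called (adjusted p = 0.27), but without WT replicate 1 it was lower by log2 -0.72 (adjusted p = 4.4e-12). In EG1, Dazl was at 108, 114 and 110.2 CPM in WT and 109.7, 119 and 119 in KO. Cpeb1, which controls polyadenylation in the cytoplasm of oocytes, was at 11.1 and 9.38 CPM in WT, 5.06 and 5.33 in line 1 and 12.2 and 11.5 in line 2. Line 1 was 1.97-fold below WT (adjusted p = 2.6e-06), and line 2 was not called against WT (log2 0.21 ± 0.12). In EG1 it was at 4.22, 3.70 and 3.08 CPM in WT and 3.42, 3.81 and 3.12 in KO. Stk31, a Tudor domain kinase of germ cells, was at 26.4 and 26.2 CPM in WT, 19.9 and 22.2 in line 1 and 45.6 and 42.0 in line 2. The groups did not overlap, and the fall in line 1 was lost without line 1 replicate 1 (adjusted p = 0.071). In EG1, Stk31 was at 21.9, 20.5 and 23.1 CPM in WT and 18.1, 19.8 and 17.8 in KO (log2 -0.24 ± 0.078 SE, adjusted p = 0.047), a call lost without EG1 WT replicate 1 or 3 or EG1 KO replicate 1 or 3 (adjusted p = 0.085 to 0.23) and in DESeq2 (adjusted p = 0.21).

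Meioc, a partner of the meiotic RNA machinery that lets germ cells stay in meiotic prophase, was counted under Gm1564. It was at 4.23 and 6.59 CPM in WT, 4.89 and 4.83 in line 1 and 11.7 and 10.7 in line 2. WT and line 1 overlapped, and line 2 was higher than line 1 (log2 1.20 ± 0.16 SE, adjusted p = 1.7e-06). In EG1 its WT libraries read 7.31, 7.22 and 7.78 CPM and its KO libraries 5.07, 5.91 and 5.78, a fall that passed the test (log2 -0.41 ± 0.13 SE, adjusted p = 0.037) but lost the call without EG1 WT replicate 1, 2 or 3 or EG1 KO replicate 1 or 3 (adjusted p = 0.069 to 0.14) and in DESeq2 (adjusted p = 0.19). Meioc is left out of the counts over the 35 genes.

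Genes of recombination, chromatin and meiotic progression were higher in line 2 than in line 1 for 6 of 6 (median log2 1.58, with 19% of all genes). Against WT, 5 of 6 were higher in line 2 (30.3% of all genes). Usp26, an X-linked deubiquitinase of the testis, at chrX:51753959-51801233 on the minus strand, was at 14.9 and 13.0 CPM in WT, 21.2 and 20.2 in line 1 and 111 and 113 in line 2. Both lines were above WT, line 1 by 1.48-fold (adjusted p = 6.4e-06) and line 2 by 7.99-fold (adjusted p = 7.9e-22). In EG1 it went the other way, from 51.9, 52.4 and 48.6 CPM in WT to 32.4, 35.8 and 37.3 in KO (log2 -0.54 ± 0.06 SE, adjusted p = 4.6e-09). Brdt, the testis bromodomain protein that reads acetylated histones, was at 6.66 and 6.83 CPM in WT, 7.45 and 6.79 in line 1 and 32.2 and 30.1 in line 2. Line 2 was 4.36-fold above line 1 (adjusted p = 1.1e-14), and WT and line 1 overlapped. EG1 WT held 6.47, 7.73 and 6.51 CPM and EG1 KO 6.27, 6.13 and 5.90. Taf7l, a germ cell relative of a general transcription factor subunit, was at 16.5 and 14.8 CPM in WT, 10.8 and 11.0 in line 1 and 37.1 and 38.2 in line 2. It fell in line 1 (log2 -0.52 ± 0.10) and rose in line 2 (log2 1.27 ± 0.086). In EG1, Taf7l was at 15.2, 13.9 and 13.5 CPM in WT and 11.4, 13.7 and 14.2 in KO.

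Tex11, an X-linked gene needed for crossovers, was at 5.79 and 5.94 CPM in WT, 6.20 and 6.03 in line 1 and 17.4 and 14.3 in line 2. WT and line 1 were close (log2 0.06 ± 0.16), and line 2 was 2.58-fold above line 1. EG1 WT was at 15.0, 17.8 and 18.2 CPM and EG1 KO at 15.4, 15.1 and 14.9. Zcwpw1, a histone reader at recombination sites, was at 10.6 and 9.62 CPM in WT, 9.90 and 11.4 in line 1 and 15.1 and 15.8 in line 2, with line 2 above both (log2 0.54 ± 0.11 over line 1). The EG1 levels were 4.95, 4.59 and 5.76 CPM in WT and 6.10, 6.13 and 4.91 in KO. Tex15, needed for meiotic DNA repair and for silencing of retrotransposons, was nearly flat in the OdG table, at 77.1 and 76.3 CPM in WT, 73.0 and 72.8 in line 1 and 81.7 and 78.8 in line 2. The call between the lines (log2 0.14 ± 0.048) was lost without any 1 of the 4 libraries (adjusted p = 0.054 to 0.19), in DESeq2 (adjusted p = 0.19) and in a fit over all 12 libraries (adjusted p = 0.085). In EG1, Tex15 fell from 50.9, 51.6 and 46.7 CPM in WT to 32.0, 39.0 and 34.6 in KO (log2 -0.50 ± 0.063 SE, adjusted p = 1.1e-07).

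Among germ cell copies of housekeeping genes and surface proteins, 5 of 5 were higher in line 2 than in line 1 (19% of all genes) and than in WT (30.3%). Tex101 passed the filter on low counts only through line 2, so it had to differ and adds nothing to these counts. Tktl2, a transketolase-like gene of the testis at chr8:66511756-66518335 on the plus strand, was at 1.16 and 0.950 CPM in WT, 0.816 and 1.40 in line 1 and 8.35 and 7.70 in line 2. Line 2 was 7.34-fold above line 1 (log2 2.88 ± 0.23 SE, adjusted p = 2.1e-10), the second largest difference of the set. EG1 WT was at 3.26, 2.86 and 3.89 CPM and EG1 KO at 2.45, 2.90 and 1.68, which overlapped (adjusted p = 0.12). Slc25a31, the ADP/ATP carrier of germ cells, was at 5.04 and 5.40 CPM in WT, 4.57 and 5.46 in line 1 and 18.4 and 18.1 in line 2, a 3.66-fold difference between the lines. In EG1 it was at 2.64, 3.30 and 3.64 CPM in WT and 2.74, 3.12 and 3.41 in KO. Tuba3a, a testis alpha-tubulin, was at 26.6 and 27.3 CPM in WT, 14.5 and 13.7 in line 1 and 38.5 and 40.4 in line 2, below WT in line 1 (log2 -0.93 ± 0.088) and above it in line 2 (log2 0.55 ± 0.076). In EG1, Tuba3a was at 68.5, 66.8 and 68.8 CPM in WT and 66.1, 63.9 and 63.0 in KO. Rpl10l, the retrogene copy of an X-linked ribosomal protein gene that replaces it in meiosis, was at 89.3 and 100.4 CPM in WT, 126 and 124 in line 1 and 162 and 155 in line 2. It rose in both lines and fell in EG1, from 56.1, 53.0 and 57.1 CPM in WT to 46.9, 41.3 and 45.4 in KO (log2 -0.32 ± 0.056 SE, adjusted p = 8.1e-05). Tex101, a germ cell surface protein, was at 0.406 and 0.772 CPM in WT, 0.653 and 0.317 in line 1, 1.65 and 1.85 in line 2, 0.506, 0.336 and 0.555 in EG1 WT and 0.798, 0.341 and 0.347 in EG1 KO. Its line 2 to line 1 difference went from log2 1.80 to 2.44 without line 1 replicate 1.

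Some of these values rest on reads that could belong to another gene, since the strand setting of the counting is not given in the sources used here. In GENCODE M21 on GRCm38, 52.2% of the exon bases of Sycp3 lie opposite exons of Chpt1, which was lower in line 2 than in line 1 (log2 -0.42 ± 0.099) where Sycp3 was higher. Tdrkh shares 36.7% of its exon bases with Oaz3 on the other strand, and Oaz3 was at a mean of 0.347 CPM or less in every group. Zcwpw1 shares 8.21% with Pilra, Tuba3a 4.97% with 4930417O13Rik and Tdrd5 2.54% with 4930518J20Rik. Reads of overlapping genes cannot be told apart without strand. Copies of 3 members may share reads with them as well. Tuba3b was higher in line 2 than in line 1 (log2 3.21 ± 0.28), as was Tex19.2 (log2 1.67 ± 0.12), whereas Rpl10 was lower (log2 -0.24 ± 0.031). The values of Tuba3a, Tex19.1 and Rpl10l are uncertain to that extent.

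Ordered by the difference between the lines, Fkbp6 stood apart at log2 4.90, followed by Tktl2 (2.88), Gtsf1 (2.57), Sycp2 (2.52), Usp26 (2.43), Asz1 (2.35), Mov10l1 (2.23), Sycp1 (2.16), Brdt (2.12) and Dazl (2.0). The SE was 0.23 for Tktl2, 0.33 for Gtsf1, 0.28 for Sycp2, 0.19 for Asz1 and 0.18 for Mov10l1, and differences in rank between genes were not tested. Gtsf1 passed the filter on low counts only through line 2, so its place near the top carries no weight. At the other end were Zcwpw1 (0.54), Rpl10l (0.34), Tex19.1 (0.24), Tex15 (0.14) and Tdrd12 (-0.05). Tested against a 2-fold change in place of no change, 17 of the 34 remained called. The 15 genes with an E-box in the promoter window had a median difference of log2 1.6 (0.85 to 4.90), and the 17 without one a median of 1.51 (-0.05 to 2.88). The 5 windows with the smallest differences, those of Hormad2, Zcwpw1, Rpl10l, Tex19.1 and Tdrd12, held no E-box, nor did those of Tktl2, Gtsf1, Sycp2, Usp26 and Asz1 near the top. For the E2F6 motif the median was 1.26 over 13 genes with it (0.24 to 2.16) and 1.93 over 19 without it (-0.05 to 4.90), and the genes from Fkbp6 to Mov10l1 at the top of the order lacked it. These are descriptions of the genes chosen, with no test.

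**Figure D3:**
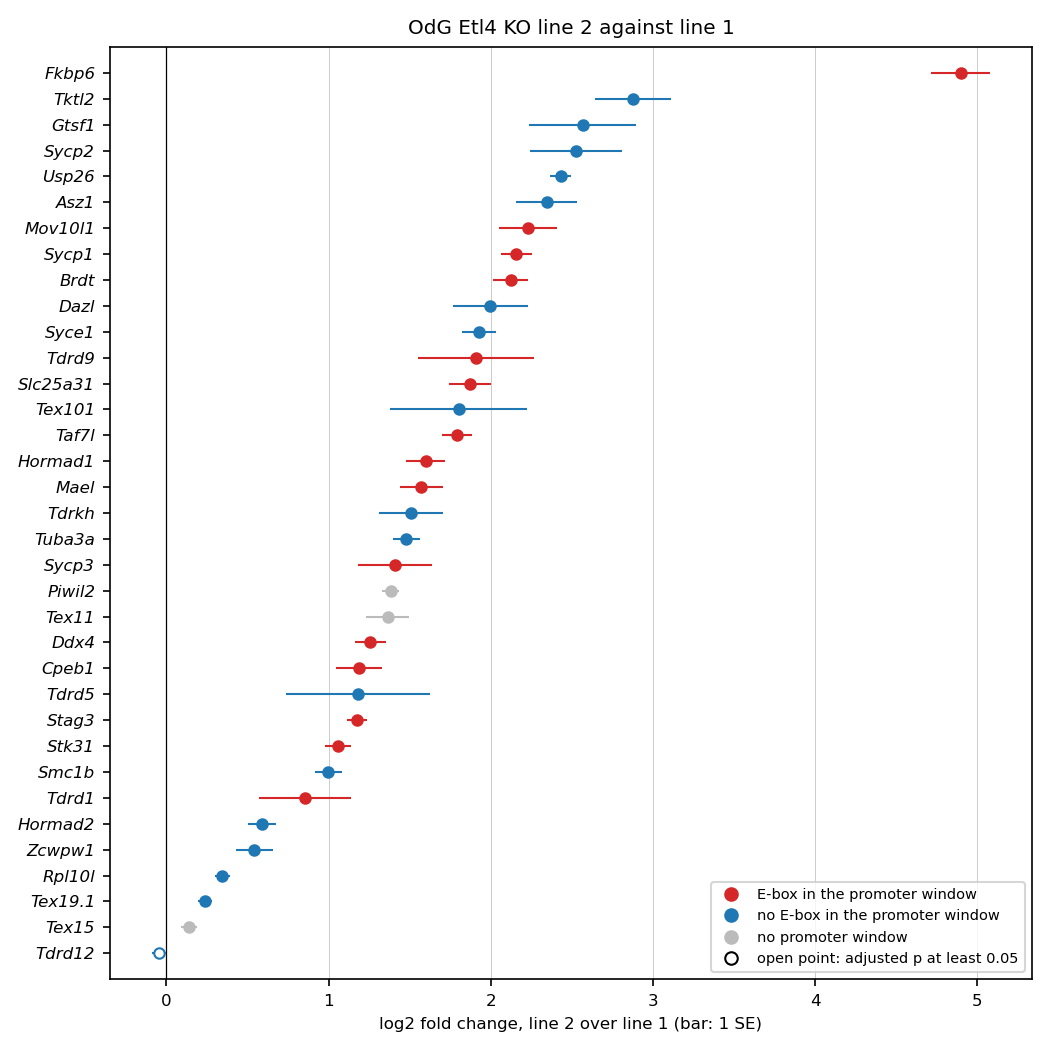
Log2 fold change of line 2 over line 1 for each of the 35 genes, sorted by size, with bars of 1 SE, red points for genes with CACGTG in the 300-base promoter window, blue for genes without it and grey for genes with no window. Fkbp6 is highest at 4.90, Tdrd12 is the only open point (not called) at -0.05, and the red points run from 0.85 (Tdrd1) to 4.90 and the blue from -0.05 to 2.88 (Tktl2).

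Levels of different genes can be compared only per length, and mean CPM per kilobase of annotated exon was used for that. In OdG WT, Rpl10l was highest (92.7), then Tex19.1 (55), Tdrd12 (22.1) and Tuba3a (17.9), and Tktl2 (0.19) and Tdrd5 (0.0973) were lowest of 35. In line 2 the order began with Rpl10l (155), Tex19.1 (78.4), Usp26 (27.1), Tuba3a (26.1), Tdrd12 (23.1) and Dazl (23.1). Usp26 was ranked 18 of 35 in OdG WT and 3 in line 2. In EG1 WT, Tex19.1 (93.2) was above Rpl10l (54.2), Tuba3a (45.1), Hormad1 (41.6) and Dazl (29). Tdrd5 was last in every group, at 0.0712 to 0.163.

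The parental lines also differed before any knockout. EG1 WT was higher than OdG WT for 14 genes and lower for 14 of 35, against 34.9% higher and 35.4% lower of 14977 genes tested in 1 fit over all 12 libraries. The median was log2 -0.11 for the set and -0.004 for all genes. The shares of the set lay near the background, and parental line and count table cannot be told apart. Fkbp6 was 29.6-fold higher in EG1 WT (log2 4.89 ± 0.17 SE, adjusted p = 4.6e-31), Hormad1 5.52-fold, Gtsf1 3.93-fold, Dazl 3.79-fold and Usp26 3.69-fold. In the other direction Smc1b was 5.14-fold lower in EG1 WT (adjusted p = 1.1e-29), Tdrkh 2.91-fold and Cpeb1 2.76-fold. For Fkbp6, Hormad1, Dazl and Usp26, low WT levels in OdG stood beside high WT levels in EG1. The call for Sycp1 (log2 0.46) was lost without OdG WT replicate 1 (log2 0.27, adjusted p = 0.12), that for Stag3 without the same library (adjusted p = 0.067), and those for Hormad2 and Asz1 without OdG WT replicate 2 (adjusted p = 0.16 and 0.081). Tdrd9 was called higher only without EG1 WT replicate 3 (log2 0.78, adjusted p = 0.028).

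The effect of a KO line is taken here as that line minus its WT. Whether it depended on the line was tested as the difference between the effects in the fit over 12 libraries. The knockout and other differences between lines cannot be told apart in such an effect. The line 2 effect exceeded the EG1 effect for 26 of 35 genes and was below it for 0 (also 0 at an unadjusted p under 0.05 and in DESeq2), with a median of log2 1.23. Over all genes 22.3% were higher and 21.8% lower, with a median of -0.006. The largest of these differences were those of Fkbp6 (log2 4.71 ± 0.20), Usp26 (log2 3.52 ± 0.097) and Tktl2 (log2 3.42 ± 0.33). The line 1 effect was above the EG1 effect for 4 genes (Usp26, Rpl10l, Tex15 and Tex19.1) and below it for 9, against 18.2% and 15.9% of all genes. With upper quartile scaling the counts over all genes in this comparison changed from 2728 higher and 2380 lower to 2152 and 2848, while the counts over the set stayed at 4 and 9. The gene with the lowest line 1 difference that was called was Sycp3 (log2 -0.91 ± 0.29), a call lost without OdG WT replicate 2 (log2 -0.69, adjusted p = 0.11) or line 1 replicate 2 (log2 -0.53, adjusted p = 0.2), and in DESeq2 (log2 -0.91, adjusted p = 0.053), and larger without line 1 replicate 1 (log2 -1.49).

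Genes of the same pathways outside the set were counted in the same fits. Of 41 other meiosis and piRNA genes, 40 were found and 32 tested, and 12 were higher and 4 lower in line 2 than in line 1 (19% and 19.7% of all genes), with a median of log2 0.27. In line 1 against WT, 4 were higher and 13 lower (median -0.39, with 27% and 26.3% of all genes). In line 2 against WT 8 were higher and 7 lower (median -0.001), which was no more than the 30.3% and 29.9% of all genes. In EG1 KO, 0 were higher, also at an unadjusted p under 0.05, and 6 were lower (median -0.08, with 3.81% and 4.23% of all genes). Rnf17, a Tudor protein of germ cells, was at 93.5 ± 2.18 CPM in WT, 78.4 ± 5.03 in line 1 and 181 ± 0.792 in line 2 (mean ± SD, n = 2 each; log2 1.21 ± 0.044 SE, adjusted p = 2.6e-17 between the lines). Piwil1, the PIWI protein of meiotic and later male germ cells, was at 1.49 ± 0.514, 0.735 ± 0.0387 and 4.75 ± 0.276 CPM in the same groups (log2 2.68 ± 0.29 between the lines). Rec114, needed to start meiotic DNA breaks, went from 6.06 ± 1.03 CPM in line 1 to 12.8 ± 0.0396 in line 2. In the fit over 12 libraries it was higher in EG1 WT than in OdG WT (log2 3.06 ± 0.10 SE, adjusted p = 2e-31). Iho1, a partner of Rec114 counted under Ccdc36, went from 0.544 ± 0.308 CPM in line 1 to 3.42 ± 0.943 in line 2 (adjusted p = 1.6e-06).

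The repressors known to act on germline promoters were all detected, with 22 of 22 at 1 CPM or more in every group. Between line 2 and line 1, 6 of 22 were higher and 4 lower (median log2 0.03), near the 19% and 19.7% of all genes. Against WT, 16 were higher and 2 lower in line 1 (median 0.25, with 27% and 26.3% of all genes). In line 2, 14 were higher and 2 lower than WT (median 0.26, with 30.3% and 29.9% of all genes). In EG1 KO, 2 were higher and 0 lower (1 lower at an unadjusted p under 0.05), against 3.81% and 4.23% of all genes. Max, the common partner of MYC and MGA, was lower in line 2 than in line 1 (log2 -0.23 ± 0.044 SE, adjusted p = 0.00018), and Wdr5 (log2 0.34 ± 0.033), Hdac2 (log2 0.35 ± 0.04) and Ehmt1 (log2 0.18 ± 0.042) were higher. All 4 differences were under log2 0.4 in size. DNA methylation and demethylation genes, 17 of 18 tested, were higher for 8 and lower for 3 in line 2 against line 1 (median log2 0.08), to be read against the same 19% and 19.7%. They were higher for 10 and lower for 2 in line 1 against WT (median 0.19) and for 12 and 4 in line 2 (median 0.31), against the shares given for the repressors. In EG1 KO 3 were higher and 0 lower (1 lower at an unadjusted p under 0.05). Dnmt3l, the cofactor of the de novo methyltransferases, was at 36.9 ± 0.698 CPM in OdG WT, 30.02 ± 2.07 in line 1 and 55.2 ± 2.25 in line 2 (log2 0.88 ± 0.07 SE, adjusted p = 1.3e-10 between the lines). It was also higher in EG1 KO than in EG1 WT (log2 0.68 ± 0.06 SE, adjusted p = 1e-11). Its line 2 effect was not called different from the EG1 effect (log2 -0.11 ± 0.091 SE, adjusted p = 0.34). Dnmt3b, a de novo methyltransferase, rose from 80.8 ± 1.13 CPM in OdG WT to 150.4 ± 5.34 in line 1 and 188 ± 2.26 in line 2. Tet2, which oxidises methylated cytosine, was lower in line 2 than in line 1 (log2 -0.42 ± 0.037), and Kdm2b, which binds unmethylated CpG islands, was higher (log2 0.38 ± 0.043).

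Marker genes of other cell types were summed over each list to see what moved beside the set. The 13 2-cell-like genes found of 15 summed to 6.66 to 8.79 CPM in OdG WT, 11.7 to 13.1 in line 1, 42.8 to 43.9 in line 2, 185.5 to 198.6 in EG1 WT and 96.8 to 104.4 in EG1 KO. They moved with the set between the OdG lines, where 12 of 13 were higher in line 2 (19% of all genes). Of the 13, 1 had a mean of at least 1 CPM in OdG WT, 7 in line 1 and 12 in line 2. Whether some passed the filter on low counts only through line 2 was not checked. In EG1 KO, 13 of 13 were lower than in EG1 WT (4.23% of all genes). In the fit over 12 libraries 13 of 13 were higher in EG1 WT than in OdG WT (34.9% of all genes). Primordial germ cell genes, 9 of 9 found and including Dppa3 and Prdm14 of the DNA methylation list, summed to 265.1 to 268.5 CPM in OdG WT, 311.5 to 316.7 in line 1, 438.5 to 440 in line 2, 465.6 to 480.8 in EG1 WT and 447.1 to 462.1 in EG1 KO, with 3 of 8 tested higher and 2 lower in line 2 against line 1 (19% and 19.7% of all genes). Feeder fibroblast genes, 12 of 12 found, went from 113.8 to 120.1 CPM in OdG WT to 72.1 to 74.8 in line 1 and 43 to 43.3 in line 2. On the separate EG1 scale they were at 28.4 to 31 in EG1 WT and 28.3 to 32.5 in EG1 KO. Prrx1 was at 0 in line 1, line 2 and EG1 WT. The part of these shifts in the result was not tested.

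Spermatocyte, spermatid and oocyte markers had low sums. The 12 spermatocyte and spermatid genes summed to 8.88 to 12 CPM over all libraries, and Spata16 was at 0 in every group, Prm2, Akap4 or Tnp1 in several; 0 of 2 tested were called in line 2 against line 1, with 1 higher at an unadjusted p under 0.05. Oocyte genes summed to 6.55 to 7.18 CPM in OdG WT, 9.85 to 10.2 in line 1, 9.64 to 10.2 in line 2, 3.75 to 4.56 in EG1 WT and 5.02 to 5.55 in EG1 KO, with Oosp1 at 0 in every group. Of the 2 oocyte genes tested, 2 were higher in line 1 and 2 in line 2 against WT (medians log2 0.85 and 0.71, with 27% and 30.3% of all genes). Spermatogonia genes, which ESCs share in part, summed to 461 to 472.6 CPM in OdG WT, 689.1 to 698 in line 1, 599.1 to 613.6 in line 2, 613.7 to 616 in EG1 WT and 602 to 615.3 in EG1 KO. Somatic gonad genes summed to 14.8 to 15.5 CPM in OdG WT, 11 to 11.1 in line 1, 12.1 to 12.9 in line 2, 14.4 to 15.6 in EG1 WT and 14.8 to 16.4 in EG1 KO. The ESC list itself was at 6092 to 6281 CPM in OdG WT, 6928 to 6981 in line 1, 6609 to 6613 in line 2, 8331 to 8473 in EG1 WT and 8211 to 8406 in EG1 KO.

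**Figure D4:**
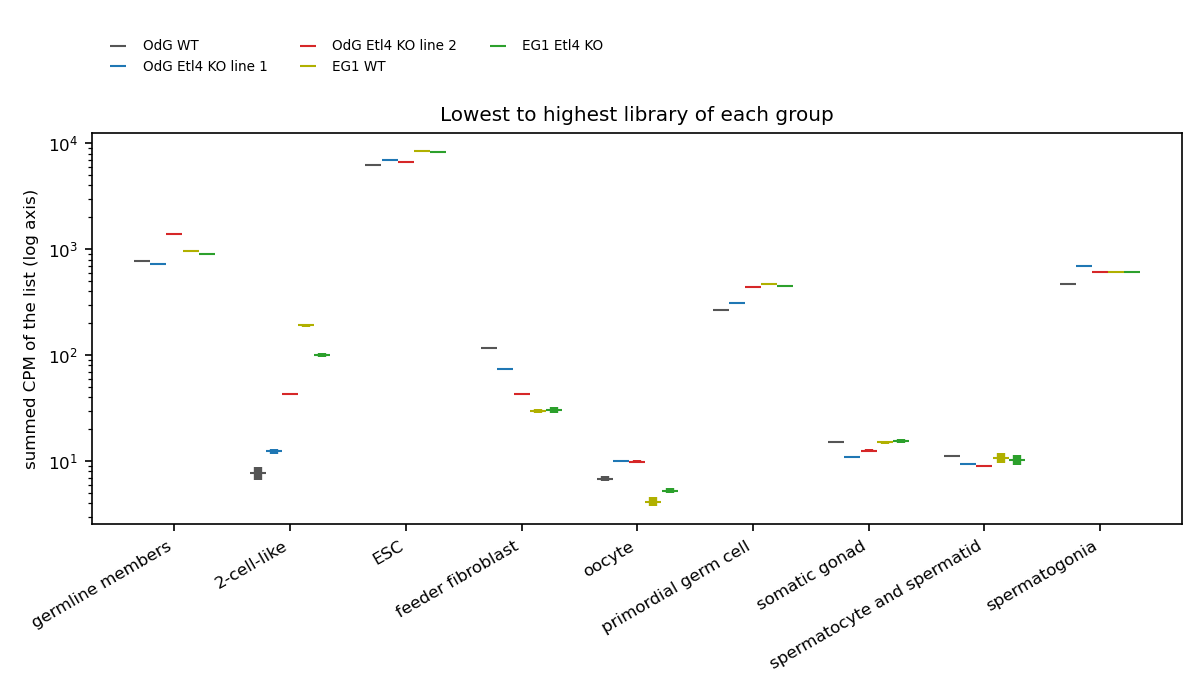
Summed CPM (log axis) of the 35 germline genes and of 8 marker lists, each bar running from the lowest to the highest library of a group and the tick marking its middle on that axis. OdG and EG1 groups are on separate scales. The 2-cell-like sum of the OdG groups is lowest in WT (6.66 to 8.79) and highest in line 2 (42.8 to 43.9). In EG1 it is 185.5 to 198.6 in WT and 96.8 to 104.4 in KO. The spermatocyte and spermatid sum stays between 8.88 and 12 in all groups.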

How the data were processed

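RNA of 12 libraries was extracted with Trizol and made into libraries with a NEBNext Ultra kit, per the labels' protocols. The mm10 build, featureCounts 1.6.4, HISAT2 2.1.0, CASAVA and DESeq2 are named per the submitters' processing notes. For annotation, filters and strand, the setting was not given in the sources used here. Raw values came from the authors as 2 deposited tables of raw read counts per gene, 1 for OdG and 1 for EG1, each with 24421 symbols and 0 columns without a sample.

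From these counts, genes were filtered with filterByExpr (minimum count 10) and scaled by TMM, and groups were compared with edgeR 4.0.16 in R 4.3.3 by its quasi-likelihood test with Benjamini-Hochberg adjustment over all genes tested and a threshold of 0.05. Fits used the 6 libraries of a table, or all 12 for differences between effects and between parental lines. The code was tested on simulated data. Replicates differed by more than sampling noise, with chi-square per degree of freedom of 1.82 to 3.86. All 35 genes found are named with every library's value, and up to 4 genes of each pathway list by the smallest adjusted p of line 2 against line 1. The genes and lists were chosen with earlier results of these data known. Alternatives were RLE and upper quartile scaling, DESeq2 1.42.0, no filter, a test against a 2-fold change, a replicate block, other sets of libraries in the fit and leaving out each library. Gene positions and exon lengths come from GENCODE M21 and promoter sequences from RefSeq, both on GRCm38.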

Additional observations from a re-analysis of the deposited data

Results flagged for a closer look

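The effect, a KO line minus its WT, differed between an OdG line and EG1 for the genes below. The test was edgeR's quasi-likelihood test of the difference between the effects over all 12 libraries. In these effects the knockout and other differences between lines cannot be told apart. Each value is a log2 difference between effects, the OdG effect minus the EG1 effect. For line 1, the effect was above that in EG1 for Usp26 1.10, Rpl10l 0.71, Tex15 0.42 and Tex19.1 0.25. It was below that in EG1 for Sycp3 -0.91, Cpeb1 -0.90, Smc1b -0.88, Tuba3a -0.85, Hormad1 -0.63, Ddx4 -0.60, Stag3 -0.55, Hormad2 -0.45 and Taf7l -0.41.

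For line 2, each called difference was above 0. The genes past a 4-fold difference were Fkbp6 4.71, Usp26 3.52, Tktl2 3.42, Gtsf1 2.58, Sycp2 2.55, Brdt 2.37 and Sycp1 2.25. Between 2-fold and 4-fold were Asz1 1.99, Syce1 1.89, Slc25a31 1.85, Mov10l1 1.81, Mael 1.6, Tex11 1.59, Dazl 1.5, Piwil2 1.37, Taf7l 1.37, Tdrd9 1.23 and Rpl10l 1.05. The smaller differences were Hormad1 0.97, Stk31 0.96, Tdrkh 0.81, Ddx4 0.65, Stag3 0.62, Tuba3a 0.62, Tex15 0.55 and Tex19.1 0.48. These 26 of 35 genes include 5 of the 8 axis and cohesin genes and 10 of the 13 piRNA genes, against 22.3% of all genes tested. Rpl10l, Tex15, Tex19.1 and Usp26 were above the EG1 effect in both lines, and Ddx4, Hormad1, Stag3, Taf7l and Tuba3a were below it in line 1 and above it in line 2. Taf7l in line 1 lost its call without OdG WT replicate 1, line 1 replicate 1 or 2, EG1 WT replicate 3 or EG1 KO replicate 2 or 3 (adjusted p = 0.054 to 0.14) and in DESeq2 (adjusted p = 0.08). In line 2, Tdrkh lost it without OdG WT replicate 1 or 2, line 2 replicate 1 or 2, EG1 WT replicate 2 or 3 or EG1 KO replicate 1 or 3 (adjusted p = 0.056 to 0.15) and in DESeq2 (adjusted p = 0.12), and Tdrd9 without OdG WT replicate 2, line 2 replicate 2 or EG1 WT replicate 1 or 2 (adjusted p = 0.053 to 0.093) and in DESeq2 (adjusted p = 0.081). In line 1, Dazl gained a call without OdG WT replicate 1 (log2 -0.79, adjusted p = 6.4e-10) and Tdrkh without line 1 replicate 2 (log2 -1.11, adjusted p = 0.029). Zcwpw1, Tex101 and Sycp3 gained a call in line 2 when some single libraries were left out (adjusted p = 0.018 to 0.048), and Zcwpw1 also with RLE scaling (adjusted p = 0.047). No group had the 4 libraries needed to look for a library far from the others.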

How the results depend on the processing

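No call over the 35 genes and Meioc turned its direction. Of 3910 values recomputed under the alternatives, 3702 kept their side of the threshold, 190 lost a call and 18 gained one. Tested against a 2-fold change, the count of genes higher was 0 in line 1, 15 in line 2 against WT, 17 in line 2 against line 1 and 0 in EG1 KO, and the count lower was 0 in line 1 and 0 in EG1 KO. In the same test the line 1 effect differed from the EG1 effect for 0 genes in either direction, the line 2 effect was above it for 15, and EG1 WT was higher than OdG WT for 8 and lower for 3. Leaving out 1 library gave 3 to 4 higher and 9 to 13 lower in line 1, 26 to 28 higher in line 2, 30 to 34 higher in line 2 against line 1, and 0 to 1 higher and 3 to 5 lower in EG1 KO, with 0 higher without EG1 WT replicate 2 or 3 or EG1 KO replicate 2 or 3. It gave 4 higher and 8 to 9 lower for line 1 against the EG1 effect, 24 to 27 higher for line 2 against it, and 13 to 15 higher and 13 to 14 lower for EG1 WT. DESeq2 called 31 genes in line 2 against line 1, 26 in line 2, 3 higher and 10 lower in line 1, and 1 and 3 in EG1 KO. With upper quartile scaling line 1 had 3 higher and 16 lower. Over all genes, DESeq2 called 2421 lower in line 1 (edgeR 3790), 1547 higher and 1690 lower in line 2 against line 1 (2738 and 2840), and 348 and 309 in EG1 KO (534 and 593).

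Tested against a 2-fold change, all genes counted 32 higher and 250 lower in line 1, 309 and 381 in line 2, 193 and 56 in line 2 against line 1, 1 and 1 in EG1 KO, 15 and 72 and then 280 and 152 for the line 1 and line 2 effects against EG1, and 917 and 1053 for EG1 WT. In EG1 KO, 300, 325 and 344 genes were higher without EG1 WT replicate 1, 2 and 3. With the replicate number as a block, the counts were 34 in line 2 against line 1, 28 in line 2, 4 and 13 in line 1, 1 and 4 in EG1 KO, 4 and 9 and then 26 for the differences between effects, and 12 and 13 for EG1 WT, where Sycp1 (adjusted p = 0.053), Hormad2 (0.22) and Asz1 (0.15) lost their calls. The deviations of libraries with the same number from their group means had correlations of -0.042 to 0.069 in OdG and -0.04 to -0.001 in EG1. In OdG, with 2 libraries per group, replicate 2 repeats the value of replicate 1 by construction. Such values cannot show whether libraries with the same number were handled together. Low counts limit genes such as Tdrd5, with 17 counts in line 1, and Fkbp6, with 27 in line 1.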
